A study of Homo sapiens with 72 samples.

Results

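The comparison described here set MCF10A-M1 (M1) cells given transforming growth factor beta (TGF-β, 5 ng/mL) for 2 h against M1 cells given SB431542 (SB, 10 µM), an inhibitor of the type I TGF-β receptor kinase, for 2 h. M1 is labelled a normal human breast epithelial line. Each group held 3 libraries of total RNA. The genes examined were the long non-coding RNA (lncRNA) genes with at least 0.5 TPM in at least 3 of the 24 M1 libraries. These were 20899 of the 96411 lncRNA genes in the table (21.7%). TPM is a transcript's share of a library, corrected for its length; here the shares were taken over lncRNA genes alone.

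The series covered 3 lines, each with both agents at 0, 2, 8 and 24 h and 3 libraries per group. The other lines, at the same doses and times, were MDA-MB-231, a triple-negative breast cancer line, and MCF10A-M2 (M2), which is MCF10A after transformation by HA-Ras. All cells were kept overnight in serum-free medium before the agents were added. The M1 libraries labelled TGF-β at 0 h were non-stimulated controls, and the earliest SB libraries carry 0 h in their titles but 0.5 h in their treatment labels. The vehicles named for the agents differed, ligand buffer for TGF-β and DMSO for SB, and no vehicle group at 2 h was analysed here. A difference between the groups at 2 h therefore holds the action of the ligand, that of the inhibitor and that of the vehicles, which cannot be told apart in this contrast.

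TGF-β binds a complex of type II and type I serine/threonine kinase receptors, and the type I kinase phosphorylates SMAD2 and SMAD3, which join SMAD4 and enter the nucleus to regulate transcription. SB431542 blocks the type I kinase, so it also stops signalling from TGF-β that cells make themselves. In mammary epithelium the pathway is known for growth arrest and for epithelial-mesenchymal transition, and lncRNA genes are among its transcriptional targets.

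The 6 libraries of the comparison held 15640 to 16713 lncRNA genes at 0.5 TPM or more. The most abundant gene took 28.5% to 31.6% of a library and the top 10 took 60.4% to 67.3%. Correlations of log2(TPM + 0.5) across the tested genes were 0.946 to 0.956 between libraries of a group and 0.936 to 0.951 between groups. These ranges overlapped. Such correlations rest mainly on the range of levels across genes, so they do not show how many genes differed. The read depth of these libraries cannot be had from TPM. The genes carried NONCODE identifiers that matched no symbol, position or sequence in the reference tables used here. The function of single genes is therefore not given; 2 identifiers per direction are printed, and other genes are called by their rank in the size of the difference at 2 h.

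At 2 h, 215 lncRNA genes were higher with TGF-β than with SB and 67 were lower, 282 in all or 1.35% of those tested (limma on log2(TPM + 0.5), Benjamini-Hochberg adjusted p under 0.05). The shares were 1.03% for higher and 0.321% for lower. The median log2 difference was 1.33 over the genes called higher, −1.15 over those called lower and −0.01 over all tested genes. Of the higher genes, 164 differed by at least 1 on the log2 scale and 34 by at least 2, while 45 of the lower genes differed by at least 1 in size and 1 by at least 2. In each of the 282 genes the 3 libraries of one group all lay beyond the 3 of the other; of all tested genes, 7.39% were separated this way with TGF-β higher and 7.13% with TGF-β lower.

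Rescaling the libraries by the median of gene-wise ratios gave 276 higher and 92 lower genes (1.76% called), and 212 higher and 62 lower genes were called under both scalings. With the 2 groups fitted alone the counts were 99 higher and 21 lower. Without TGF-β replicate 1 they were 148 and 38, and without TGF-β replicate 3 they were 123 and 48. The labels do not say that the replicates came from separate cultures, though the design text calls them biological; where they did not, the p-values cover no more than the spread among these libraries, which may be technical.

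**Figure D1:**
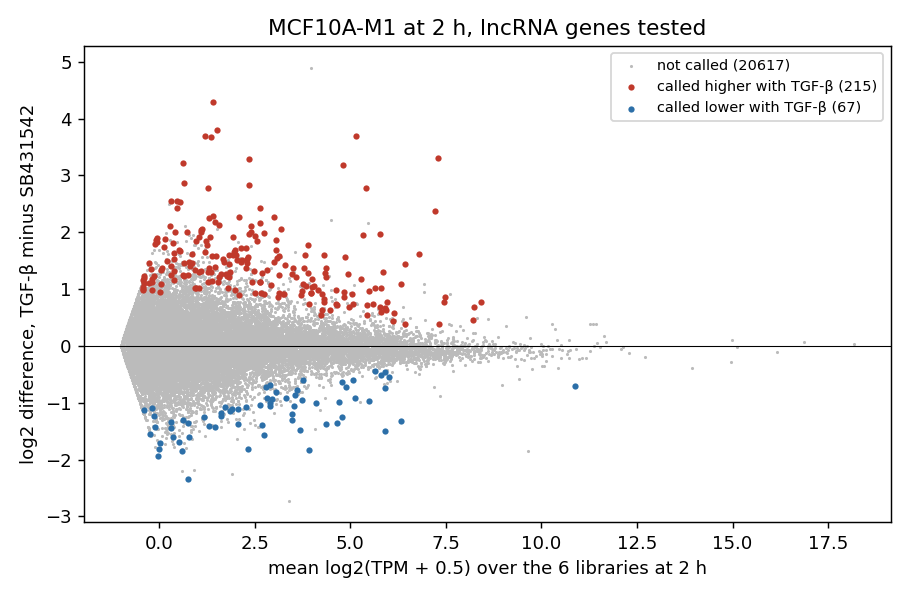
Log2 difference on log2(TPM + 0.5), TGF-β minus SB, against the mean log2(TPM + 0.5) over the 6 libraries at 2 h, 1 point for each of the 20899 tested genes. Red points are the 215 genes called higher with TGF-β and blue points the 67 called lower; the called genes extend farther upward than downward, and the grey points widen at low levels.

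The called genes were found at all levels. Among 8278 genes with a mean under 1 TPM over the M1 libraries, 38 were higher and 8 lower (0.556% called). Of 8741 genes between 1 and 10 TPM, 103 were higher and 29 lower (1.51%), and of 3290 genes between 10 and 100 TPM, 65 were higher and 29 lower (2.86%). Among the 590 genes of 100 TPM and more, 9 were higher and 1 was lower (1.69%). The precision differed between these classes, with a median standard error of the log2 difference of 0.387, 0.332, 0.173 and 0.110 from the lowest class to the highest.

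The genes called higher had a median of mean TPM of 2.17 in the SB group and 7.89 in the TGF-β group, beside 1.55 and 1.61 over all tested genes. Of the 215, 8 were listed at 0 in all 3 SB libraries (3.72%, beside 1.85% of all tested genes) and 0 in all 3 TGF-β libraries (beside 2.08%). The genes called lower had a median of mean TPM of 10.1 with SB and 4.73 with TGF-β, and 2 of the 67 (2.99%) were listed at 0 in all 3 TGF-β libraries. The genes were chosen for these differences, so the values are a description. A listed 0 is not a measured absence, since the depth is unknown.

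NONHSAG075963.1 had the largest difference among the genes called under both scalings. Its TPM values were 0, 0.115 and 0.208 with SB and 6.56, 18.0 and 12.1 with TGF-β, so the groups did not overlap and the 3 TGF-β libraries spread widely. The log2 difference was 4.30 (SE 0.58, limma adjusted p = 0.000124). In the non-stimulated controls it stood at 6.03 ± 4.24 TPM and in the earliest SB libraries at 1.86 ± 0.726 TPM (SD, n = 3). The SB group at 2 h thus lay under both starting groups. Neither the change within the TGF-β arm (log2 1.06, limma adjusted p = 0.487) nor that within the SB arm (log2 −1.93, adjusted p = 0.305) passed the test. The difference between these changes, 2.99, was not called either (limma adjusted p = 0.173).

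NONHSAG026216.2 followed, with 0.266, 0.258 and 0.291 TPM under SB and 7.40, 6.55 and 21.8 TPM under TGF-β. TGF-β replicate 3 was far above the other two, and all 3 lay above every SB library. The log2 difference was 3.80 (SE 0.33, limma adjusted p = 2.39e-07). Its starting levels were 0.557 ± 0.243 TPM in the controls and 0.420 ± 0.118 TPM in the earliest SB libraries (SD, n = 3). This gene rose within the TGF-β arm by 3.37 on the log2 scale (limma adjusted p = 4.35e-06) and was not called within the SB arm (log2 −0.25, adjusted p = 0.903). The difference between the arms' changes was 3.62 (SE 0.47, limma adjusted p = 0.000241).

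NONHSAG110123.1 led the lower genes. It was at 1.89, 5.55 and 3.30 TPM with SB and at 0, 0.720 and 0.199 TPM with TGF-β, with no overlap. The log2 difference was −2.34 (SE 0.37, limma adjusted p = 0.000714). The starting groups already stood in the same order, at 1.76 ± 0.172 TPM in the earliest SB libraries and 0.595 ± 0.132 TPM in the controls (SD, n = 3), a log2 difference of −1.05 that was not called (limma adjusted p = 0.794). Its changes within the arms were −0.53 with TGF-β (limma adjusted p = 0.604) and 0.76 with SB (adjusted p = 0.588), and neither was called. Nor was the difference between these changes, −1.29 (limma adjusted p = 0.452).

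NONHSAG034365.2 was at 1.35, 2.56 and 3.66 TPM with SB and at 0.708, 0.343 and 0 TPM with TGF-β. The groups did not overlap, but the lowest SB library and the highest TGF-β library were closer to each other than the SB libraries were among themselves. The log2 difference was −1.84 (SE 0.39, limma adjusted p = 0.0126). The call was lost with the 2 groups fitted alone (adjusted p = 0.106) and without SB replicate 2 (0.0566), SB replicate 3 (0.0808) or TGF-β replicate 3 (0.104). Its starting levels were near the SB level, 2.99 ± 0.860 TPM in the earliest SB libraries and 2.64 ± 1.02 TPM in the controls (SD, n = 3). Within the TGF-β arm it fell by 1.93 on the log2 scale (limma adjusted p = 0.0142; 0.128 with those groups fitted alone, 0.0883 without 0 h replicate 1 and 0.0900 without TGF-β 2 h replicate 3), and within the SB arm the change was −0.25 (adjusted p = 0.917). The difference between the arms' changes, −1.67, was not called (limma adjusted p = 0.305).

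**Figure D2:**
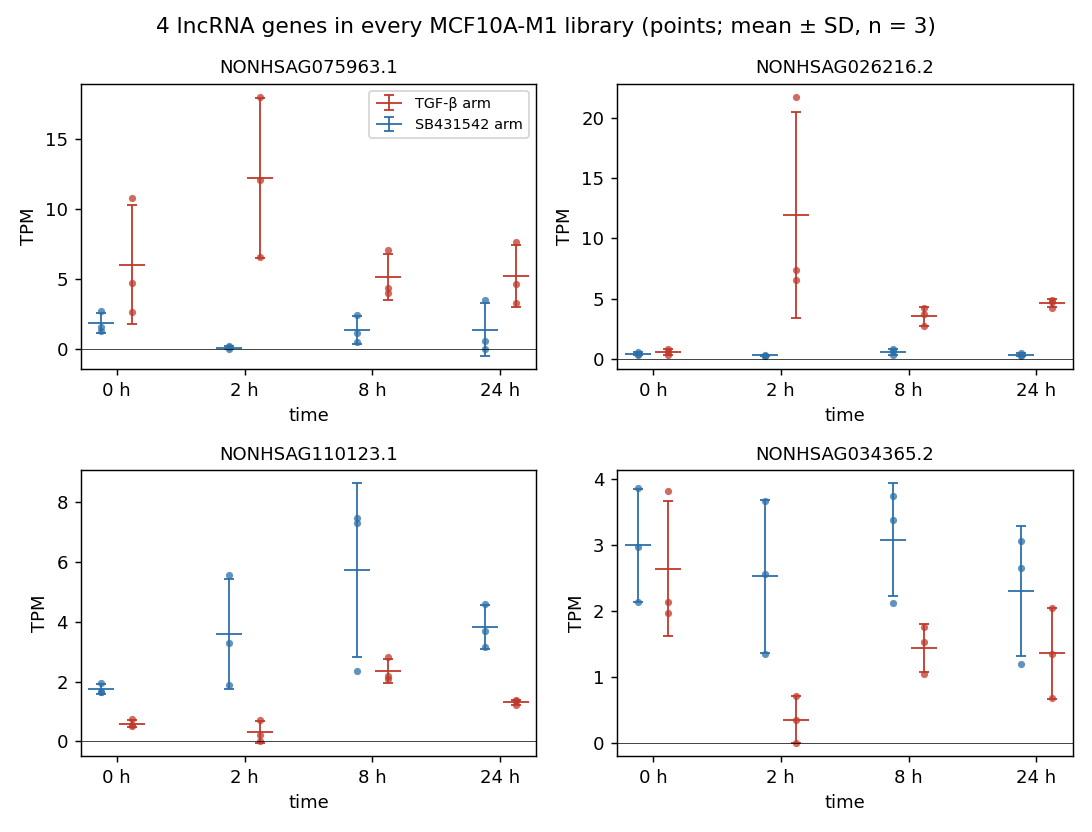
TPM of the 4 genes in all M1 libraries by time, with points for libraries and lines for mean ± SD (n = 3); red is the TGF-β arm, blue the SB arm, and 0 h holds the earliest SB libraries and the controls. At 2 h the points of the groups are separate in every panel, and the wide TGF-β bar of NONHSAG026216.2 comes from 1 library at 21.8 TPM.

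The gene at rank 6 among the higher genes had the smallest p-value of the comparison: it stood at 49.4, 46.7 and 51.2 TPM with SB and at 491, 478 and 499 TPM with TGF-β. Its log2 difference was 3.31 (SE 0.09, limma adjusted p = 6.86e-17). The replicates within each group lay within a few percent of their mean, far inside the gap between the groups.

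Rank 3 was held by a gene at 8.36, 9.61 and 10.5 TPM with SB and at 140, 116 and 130 TPM with TGF-β, a log2 difference of 3.69 (SE 0.19). The other genes of this level had standard errors of 0.24 at rank 9 and 0.35 at rank 12. Rank 9 stood at 7.54, 8.33 and 11.0 TPM with SB and at 72.1, 82.1 and 101 TPM with TGF-β. Rank 12 stood at 20.5, 12.7 and 15.2 TPM with SB and at 105, 100 and 131 TPM with TGF-β. In all 3 genes the highest SB library was well under the lowest TGF-β library.

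Some genes with large differences were at the lower end of the scale. At rank 7 a gene had 0.898, 1.07 and 1.43 TPM with SB and 14.9, 13.9 and 17.4 TPM with TGF-β. Rank 8 was a gene listed at 0 in all 3 SB libraries and at 4.62, 3.79 and 4.15 TPM with TGF-β, so no fold is given. In the controls it was at 1.25, 1.03 and 0 TPM and in the earliest SB libraries at 0.560, 0.200 and 1.38 TPM.

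Among the lower genes, the gene at rank 3 was at 28.9, 23.6 and 31.9 TPM with SB and at 5.02, 8.81 and 9.39 TPM with TGF-β. At rank 12 the levels were 21.0, 18.4 and 24.5 TPM with SB and 7.69, 8.11 and 6.13 TPM with TGF-β. Both were separated by a gap larger than the spread of either group. That at rank 11 was at 86.6, 97.2 and 123 TPM with SB and at 35.9, 36.5 and 34.1 TPM with TGF-β, a log2 difference of −1.50 (SE 0.13, limma adjusted p = 1.82e-07). At the low end, the gene at rank 10 was at 1.33, 0.655 and 0.979 TPM with SB and listed at 0 in all 3 TGF-β libraries; its call was lost in 7 of 14 other settings.

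Among the leading genes, those called higher kept their calls in more settings. They also had the larger log2 differences, 2.55 to 4.30 against −2.34 to −1.43 for the lower genes. The ranking required a call after median-of-ratios rescaling, so no call could be lost in that setting. All 15 genes ranked highest in the upward direction kept their call in every setting that tested them, while 6 of the 15 ranked in the downward direction did and 9 lost it in at least 1 setting. None of the 30 changed its sign. Some of the 30 carry consecutive identifiers: higher ranks 1, 4 and 11, lower ranks 3 and 12, and lower ranks 5 and 9. Their positions are unknown, so whether these are separate transcripts was not tested, and they may not count as independent genes.

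The TPM summed over the 215 higher genes was 2731 to 3407 in the SB libraries (2969 ± 380, SD, n = 3) and 6317 to 7340 in the TGF-β libraries (6678 ± 574). It was 3792 to 4051 in the earliest SB libraries and 4156 to 4228 in the controls, between the groups at 2 h. The genes were chosen for this difference at 2 h, so the sums at 2 h are a description. The sum over the 67 lower genes was 3773 ± 548 with SB and 2158 ± 22.4 with TGF-β (SD, n = 3). A single gene made up most of it, with a mean of 2423 TPM with SB and 1475 TPM with TGF-β; without it the sums were 1350 ± 164 and 683 ± 38.3.

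The 2 h contrast was then read beside the change within each arm. The arms share their 2 h libraries with it, so their values are set side by side only. At the start, limma called 0 of the 20899 genes between the earliest SB libraries and the controls (0%), with 1187 at an unadjusted p under 0.05. The same count was 0 after median-of-ratios rescaling, 1 with a pseudocount of 1, 2 without the filter, and 1 without control replicate 1 or 3. Among the 215 higher genes the median log2 difference between these starting groups was 0.10, beside 0.07 over all genes, and among the 67 lower genes it was 0.03.

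Within the TGF-β arm 105 genes rose (0.502%) and 71 fell (0.34%) from 0 to 2 h, 176 or 0.842% in all. After rescaling, 174 rose and 85 fell (1.24%). Within the SB arm 6 rose (0.0287%) and 11 fell (0.0526%), 17 or 0.0813% in all, and after rescaling 7 rose and 21 fell (0.134%). For the 215 higher genes of the 2 h contrast, the median log2 change was 0.86 in the TGF-β arm and −0.33 in the SB arm, beside −0.03 and 0.04 over all genes. For the 67 lower genes these medians were −0.68 and 0.26. In both lists the median change was larger in size in the TGF-β arm than in the SB arm. The arms start from unlike groups, since the controls were non-stimulated and the earliest SB libraries carry 0.5 h of SB in their treatment labels. The change in the SB arm may thus leave out the earliest action of the inhibitor. The change in the TGF-β arm minus that in the SB arm was called for 58 genes, 38 positive (0.182%) and 20 negative (0.0957%), together 0.278%, or for 94 and 23 after rescaling (0.56%).

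The changes within the arms varied from gene to gene. Whether they differed in size within a gene was not tested. The gene at higher rank 3 started at 53.9 ± 4.66 TPM in the controls and 42.0 ± 3.13 TPM in the earliest SB libraries (SD, n = 3). It rose by 1.25 on the log2 scale in the TGF-β arm (limma adjusted p = 0.00126) and fell by 2.09 in the SB arm (adjusted p = 3.40e-06), the larger of the changes. The gene at higher rank 6 started at 106 ± 11.0 and 97.3 ± 6.51 TPM, rose by 2.20 in the TGF-β arm (limma adjusted p = 3.89e-13) and fell by 0.98 in the SB arm (adjusted p = 3.40e-06; 0.0758 with those groups fitted alone).

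The gene at lower rank 11 moved mostly in the other arm. It started at 43.3 ± 3.87 TPM in the controls and 46.6 ± 2.95 TPM in the earliest SB libraries (SD, n = 3). With SB it rose by 1.11 on the log2 scale (limma adjusted p = 0.000116; 0.114 with those groups fitted alone), while its change with TGF-β was −0.28 (adjusted p = 0.388). The gene at lower rank 12 did the reverse: it fell by 1.73 with TGF-β (limma adjusted p = 0.000216), and its change with SB was 0.24 (adjusted p = 0.841).

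**Figure D3:**
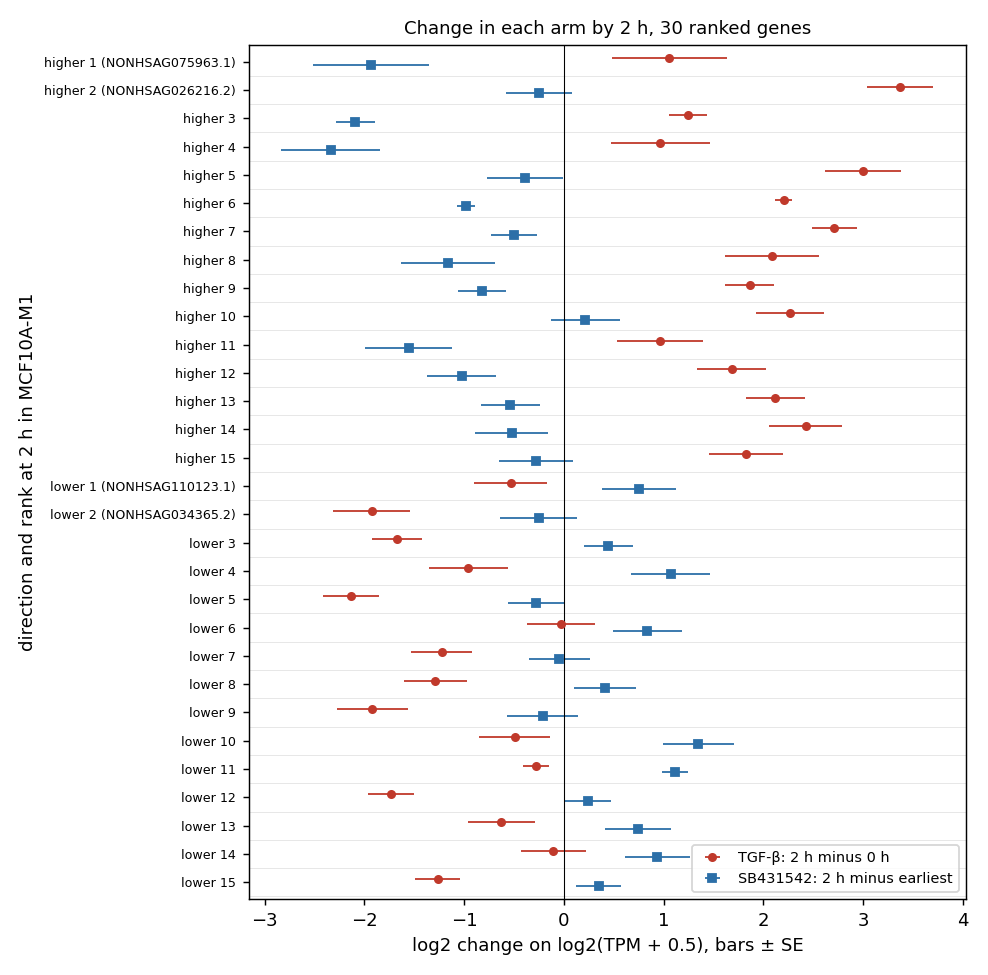
Log2 change on log2(TPM + 0.5) with its standard error for the 15 genes ranked highest in each direction at 2 h: red circles for TGF-β at 2 h minus the 0 h controls, blue squares for SB at 2 h minus the earliest SB libraries. The higher genes at ranks 3 and 6 lie apart from 0 in both arms, at 1.25 and −2.09 and at 2.20 and −0.98, and the lower gene at rank 11 lies apart from 0 mainly in the SB arm, at 1.11.

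Other libraries showed how far the early difference lasted. At 8 h, 1130 genes were higher with TGF-β than with SB (5.41%) and 604 lower (2.89%), 8.3% in all. At 24 h 874 were higher (4.18%) and 2170 lower (10.4%), 14.6% in all. The direction of the 24 h calls depended on the scaling, with 1589 higher and 1189 lower after rescaling (13.3%). The 8 h split became 1095 and 867 with that scaling (9.39%), and 912 and 1223 with the 10 genes of highest TPM left out of the total used for scaling. The median over all genes was −0.21 on the log2 scale at 24 h and 0.04 at 8 h, beside −0.02 at both times after rescaling.

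Of the 215 genes higher at 2 h, 170 were also called higher at 8 h, which is 79.1% of the 2 h list and 15% of the 8 h list. At 24 h 148 were called higher, 68.8% of the 2 h list and 16.9% of the 24 h list. None was called lower at either time. Split by time, 143 were called at both later times, 27 only at 8 h, 5 only at 24 h and 40 at neither. The median log2 difference of the list was 1.44 at 8 h and 1.25 at 24 h as deposited, and 1.35 and 1.51 after median-of-ratios rescaling. Which of these times had the larger median thus depended on the scaling. The shared count at 8 h was 75 with the compared groups alone, and 108, 113 and 104 without SB 2 h replicate 1, SB 2 h replicate 2 and TGF-β 2 h replicate 3; each of these settings also shortened the 2 h list, and the shared genes were 75.8%, 83.1%, 82.5% and 84.6% of it. At 24 h the count was 63, or 63.6% of the shortened list, with the compared groups alone, 94 (72.3%) without SB 2 h replicate 1 and 93 (75.6%) without TGF-β 2 h replicate 3.

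Of the 67 genes lower at 2 h, 27 were called lower at 8 h (40.3% of the 2 h list and 4.47% of the 8 h list) and 43 at 24 h (64.2% and 1.98%). A further 2 were called higher at 8 h and 2 at 24 h. Split by time, 26 were called lower at both later times, 1 only at 8 h, 17 only at 24 h and 23 at neither. The list's median log2 difference was −0.57 at 8 h and −1.0 at 24 h as deposited, and −0.64 and −0.84 after rescaling. The shared count at 8 h depended on scaling: it was 42 after median-of-ratios rescaling, 49 with the top 10 genes left out of the scaling and 47 after quantile normalization. It was 10 with the compared groups alone and 17 without SB 2 h replicate 3 or without TGF-β 2 h replicate 1. The 24 h count was 13 with the compared groups alone, 27 without SB 2 h replicate 3 and 25 without TGF-β 2 h replicate 1.

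The summed TPM of the 215 genes was 1994 to 2257 with SB and 7359 to 7644 with TGF-β at 8 h, and 1870 to 1918 and 6200 to 7465 at 24 h. The TGF-β sums at the later times were thus near that at 2 h, while the SB sums were lower than at 2 h. The gene at higher rank 6 showed this: with SB it stood at 15.2 ± 0.737 TPM at 8 h and 10.3 ± 0.331 TPM at 24 h, and with TGF-β at 560 ± 28.2 and 448 ± 31.3 TPM (SD, n = 3). Its difference grew by 1.85 on the log2 scale from 2 to 8 h (limma adjusted p = 4.49e-09).

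The genes were ranked by their values at 2 h, so a change of the difference from 2 h reuses those values. The time courses of the other leading genes varied. NONHSAG075963.1 had 1.37 ± 0.996 TPM with SB and 5.13 ± 1.66 TPM with TGF-β at 8 h (SD, n = 3), a log2 difference of 1.69 that was not called (limma adjusted p = 0.0773). At 24 h its difference was 2.08 (adjusted p = 0.0166), a call lost with the compared groups alone (0.0747) and without SB 24 h replicate 2 (0.131), SB 24 h replicate 3 (0.0627) or TGF-β 24 h replicate 3 (0.0652). NONHSAG026216.2 remained called, with a log2 difference of 1.93 at 8 h (limma adjusted p = 0.000429) and 2.64 at 24 h (adjusted p = 5.47e-06). Its TPM with TGF-β was 3.54 ± 0.784 at 8 h and 4.63 ± 0.337 at 24 h, against 11.9 ± 8.55 at 2 h (SD, n = 3).

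For the lower genes, NONHSAG110123.1 had a log2 difference of −0.99 at 8 h (limma adjusted p = 0.112; −1.48, adjusted p = 0.0105, without SB 8 h replicate 2). At 24 h the difference was −1.24 (adjusted p = 0.0248), which was lost after rescaling (adjusted p = 0.0821), in 2 further settings, and without SB 24 h replicate 2 or 3 or TGF-β 24 h replicate 1 or 2 (adjusted p 0.0602 to 0.0971). NONHSAG034365.2 was called at neither time (−0.87 with limma adjusted p = 0.198 and −0.59 with adjusted p = 0.358). The gene at lower rank 11 changed its direction: it stood at 91.6 ± 3.96 TPM with SB and 135 ± 8.55 TPM with TGF-β at 8 h (SD, n = 3), a log2 difference of 0.55 (limma adjusted p = 0.00691). The change of its difference from 2 to 8 h was 2.05 (adjusted p = 2.96e-07), and both calls held in every other setting. The gene at lower rank 12 went on to larger differences, with a log2 difference of −2.75 at 8 h and −3.06 at 24 h; its difference at 24 h was larger in size than at 2 h (limma adjusted p = 0.00516).

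The difference between times was called for 303 genes from 2 to 8 h or 1.45%, 231 positive (1.11%) and 72 negative (0.345%). From 2 to 24 h it was called for 777 or 3.72%, 248 positive (1.19%) and 529 negative (2.53%). After rescaling the splits were 245 and 159 (1.93%), and 582 and 336 (4.39%). With the top 10 genes left out of the scaling they were 197 and 249 (2.13%), and 405 and 536 (4.5%). The majority direction of both splits thus depended on the scaling. Of the 15 leading higher genes, 13 were called higher at 8 h (beside 5.41% of all tested genes) and 13 at 24 h (beside 4.18%). Of the 15 leading lower genes, 4 were called lower at 8 h (beside 2.89%), with 1 called higher. At 24 h 8 of them were called lower (beside 10.4%).

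**Figure D4:**
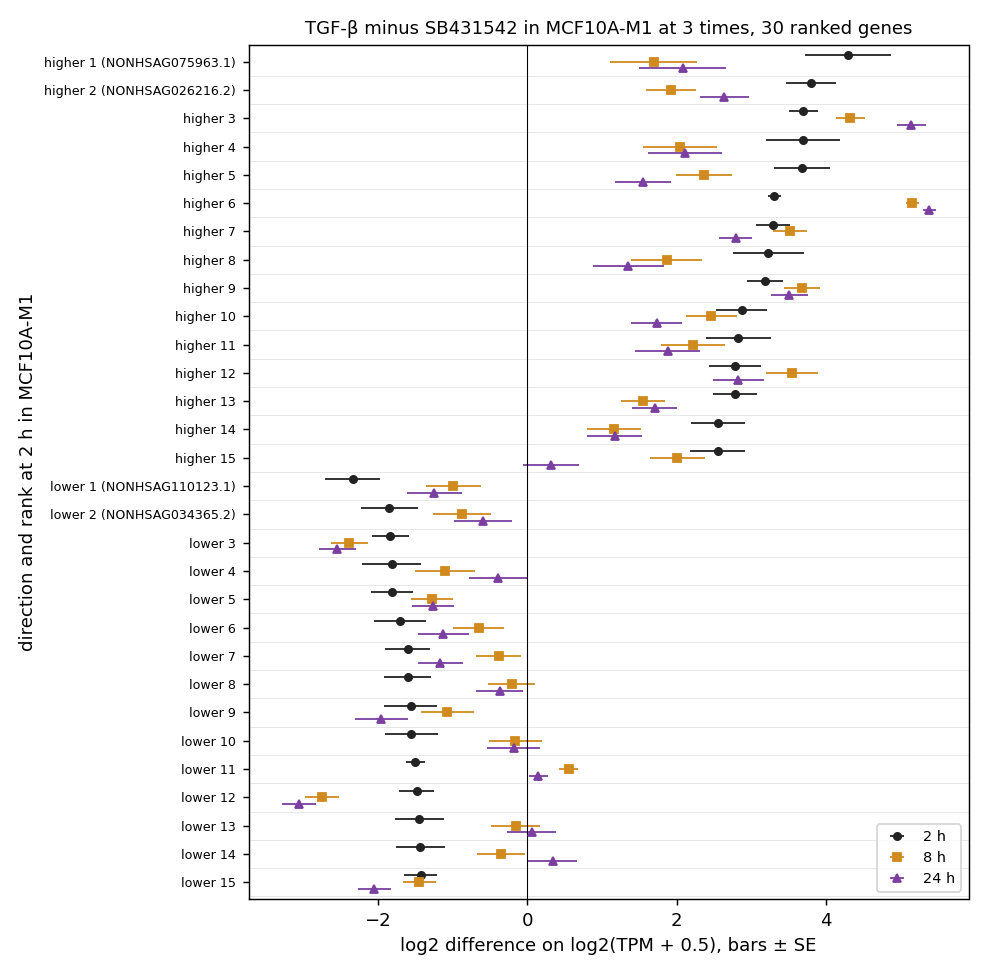
Log2 difference, TGF-β minus SB, with its standard error at 2 h (black circles), 8 h (orange squares) and 24 h (purple triangles) in M1 for the 15 genes ranked highest in each direction at 2 h. The higher gene at rank 6 moves from 3.31 to 5.15 and 5.38, and the lower gene at rank 11 moves from −1.50 to 0.55 and 0.15.

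The same contrast at 2 h was run in the other lines, with no library in common. In M2, 684 genes were higher and 18 lower of 16958 tested (4.03% and 0.106%, 4.14% in all). That split depended on the scaling: the median over all M2 genes was 0.27 on the log2 scale as deposited and 0.00 after rescaling, when 313 were higher and 87 lower (2.36%). The M2 count of 702 was 2942 without SB replicate 1 and 160 at its lowest with another library left out. In MDA-MB-231, 81 were higher and 108 lower of 16552 tested (0.489% and 0.652%, 1.14% in all), or 263 and 237 after rescaling (3.02%). Single libraries turned that split: it was 49 higher and 11 lower without TGF-β replicate 2, 63 and 28 without SB replicate 1, and 51 and 27 without SB replicate 3. Fewer were called without TGF-β replicate 1 (44 and 80) or 3 (44 and 48) too, and without the filter 70 were higher and 59 lower.

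Of the 215 genes higher in M1 at 2 h, 196 were tested in M2 and 95 of them were called higher there, 44.2% of the M1 list and 13.9% of the M2 list. In MDA-MB-231, 149 were tested and 30 called higher, 14% and 37% of the lists, with 1 called lower. The list's median log2 difference was 1.20 in M2 and 0.26 in MDA-MB-231 as deposited, and 0.88 and 0.41 after rescaling. In all 3 lines 24 of the list's 145 genes tested in all 3 were called higher, which is 0.176% of the 13631 genes tested in every line. The M2 count was 145 without M2 SB replicate 1, 61 without M2 SB replicate 2, 59 without M2 SB replicate 3 and 41 with the compared groups alone. In MDA-MB-231 the count was 53 after median-of-ratios rescaling and 49 after quantile normalization.

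Of the 67 lower genes, 62 were tested in M2, where 3 were called lower (4.48% of the M1 list and 16.7% of the M2 list) and 2 higher. In MDA-MB-231, 51 were tested, 6 were called lower (8.96% and 5.56%) and 2 higher, and 0 were called lower in all 3 lines. The M2 count was 14 after median-of-ratios rescaling, 16 after quantile normalization, 1 with the top 10 genes left out of the scaling, 1 with the compared groups alone, and 5 with a mean of at least 1 TPM or without M2 SB replicate 3. In MDA-MB-231 the count was 2 with the compared groups alone or without M1 TGF-β replicate 3, and 3 without the filter, without any other single M1 library of the contrast or without MDA-MB-231 TGF-β replicate 2. Many M1 genes were too low to be tested elsewhere: 79.0% of all genes tested in M1 were tested in M2 and 71.4% in MDA-MB-231.

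The response itself differed between M1 and M2 for 85 of 21857 genes (0.389%), of which 7 had the larger value in M1 (0.032%) and 78 in M2 (0.357%). After rescaling it differed for 31 (0.142%). With the compared groups alone it differed for 0, and with the top 10 genes left out of the scaling for 7. Leaving out 1 library moved this count between 7 and 1644. Between M1 and MDA-MB-231 it differed for 186 of 22921 genes (0.811%), 151 larger in M1 (0.659%) and 35 larger in MDA-MB-231 (0.153%), and for 284 and 212 after rescaling (2.16%). Only 75 of the 85 and 105 of the 186 passed the filter in both lines. The others were under the filter in at least 1 of the lines compared.

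Single genes varied between lines as well. NONHSAG075963.1 was at 1.87 ± 1.30 TPM with SB and 18.1 ± 6.48 TPM with TGF-β in M2, and at 0.0657 ± 0.114 and 2.38 ± 1.34 TPM in MDA-MB-231 (SD, n = 3). Its log2 difference was called in both, at 3.11 in M2 (limma adjusted p = 0.000504) and 2.26 in MDA-MB-231 (adjusted p = 0.000122). The differences to M1 were 1.18 (adjusted p = 0.556) and 2.04 (adjusted p = 0.164), which did not pass the test.

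NONHSAG026216.2 was not called in M2 (log2 1.28, limma adjusted p = 0.0739) or in MDA-MB-231 (log2 1.28, adjusted p = 0.123). In M2 it passed the test without SB replicate 1 (adjusted p = 0.0340) or TGF-β replicate 3 (0.0156). The gene was chosen for its difference in M1 at 2 h, so the following contrasts reuse the values that chose it. Its response in M1 exceeded that in M2 by 2.52 (SE 0.53, limma adjusted p = 0.0284; 0.0573 after rescaling) and that in MDA-MB-231 by 2.52 (SE 0.53, adjusted p = 0.0104; 0.0616 after rescaling). Both calls were also lost without TGF-β replicate 3 of M1, the library at 21.8 TPM (adjusted p = 0.0803 and 0.0670), with a pseudocount of 0.1 (0.208 and 0.404) and with the compared groups alone (0.502 and 0.0861). The call against M2 was lost as well without M1 SB replicate 3 (0.0774), M2 SB replicate 2 (0.0858), M2 SB replicate 3 (0.0632) or M2 TGF-β replicate 3 (0.0948), and that against MDA-MB-231 after quantile normalization (0.0906).

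The genes at higher ranks 1, 3, 6, 7, 9, 11 and 13 were called higher in all 3 lines in every setting that tested them. The gene at rank 6 was at 7.12 ± 2.44 TPM with SB and 220 ± 40.4 TPM with TGF-β in M2, and at 57.0 ± 14.9 and 274 ± 60.1 TPM in MDA-MB-231 (SD, n = 3). At rank 3 the levels were 5.42 ± 4.10 and 35.0 ± 3.63 TPM in M2, and 0.893 ± 0.242 and 28.3 ± 5.66 TPM in MDA-MB-231. The gene at rank 12 had a log2 difference of 2.98 in M2 (limma adjusted p = 0.000213) and was listed at 0 in all 6 MDA-MB-231 libraries at 2 h. Of the 15 leading higher genes, 10 of 14 tested were called higher in M2, beside 4.03% of all genes tested there. In MDA-MB-231, 8 of 10 tested were called higher, beside 0.489%. The same 8 genes were called in both lines, and ranks 1, 4 and 11, whose identifiers are consecutive, are among them.

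The leading lower genes were read in the other lines in the same way. NONHSAG110123.1 was at 1.75 ± 1.23 TPM with SB and 0.589 ± 0.241 TPM with TGF-β in M2 (SD, n = 3), a log2 difference of −0.94 (limma adjusted p = 0.335), and was listed at 0 in all 6 MDA-MB-231 libraries at 2 h. NONHSAG034365.2 had −1.17 in M2 (adjusted p = 0.199) and was listed at 0 in the same 6 libraries. The gene at lower rank 3 was called in M2 (log2 −1.14, limma adjusted p = 0.0121), a call lost with the top 10 genes left out of the scaling and with the compared groups alone (adjusted p up to 0.161), and not in MDA-MB-231 (−0.63, adjusted p = 0.550). Of the 15 leading lower genes, 1 of 13 tested was called lower in M2 (beside 0.106% of all genes tested there) and 2 of 8 in MDA-MB-231 (beside 0.652%), with 0 called in both. The MDA-MB-231 calls were those at ranks 6 and 12. The first was lost without TGF-β replicate 2 (limma adjusted p = 0.0660) and the second in 8 of 15 other settings, 5 of them without a single library.

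**Figure D5:**
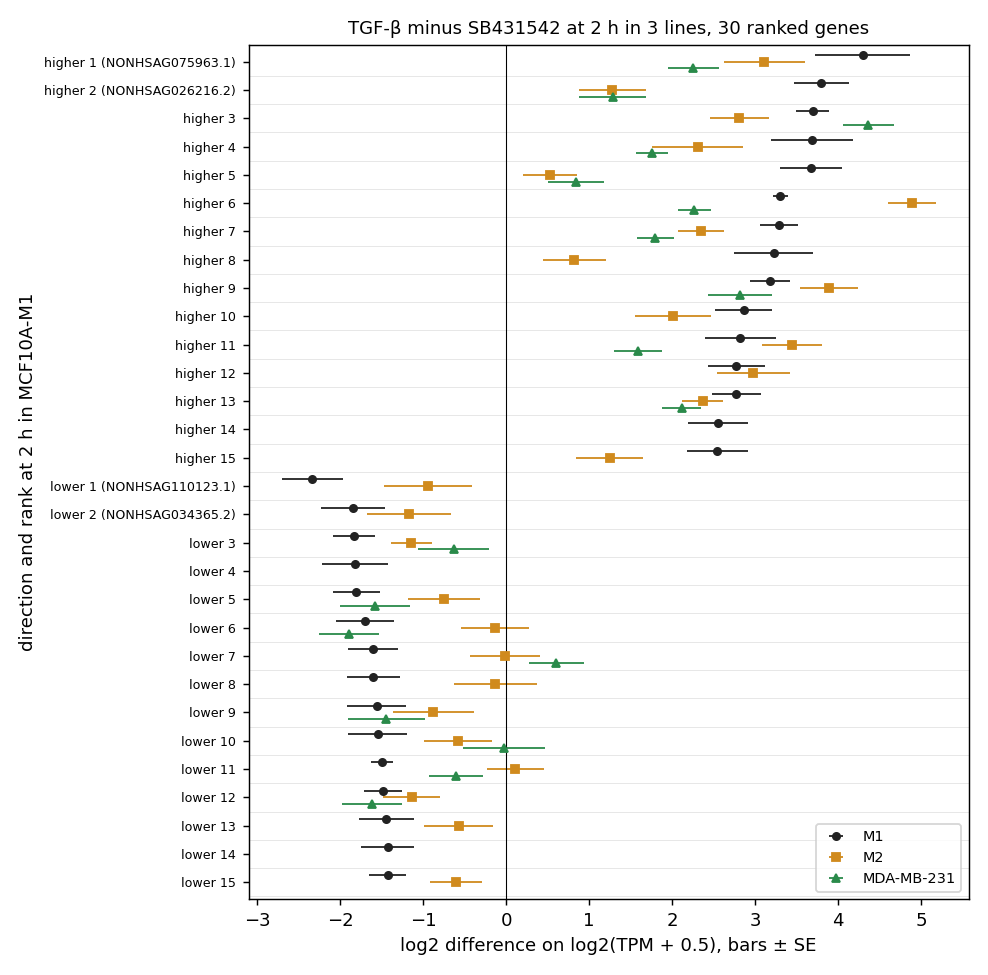
Log2 difference at 2 h, TGF-β minus SB, with its standard error in M1 (black circles), M2 (orange squares) and MDA-MB-231 (green triangles) for the 15 genes ranked highest in each direction in M1; a missing symbol means that the gene was not tested in that line. The higher genes lie right of 0 in every line that tested them, with the gene at rank 6 at 3.31, 4.89 and 2.27, while several lower genes lie near 0 in M2.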

How the data were processed

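Total RNA of the cell lines was sequenced; per the submitters' processing notes the build was GRCh38 and the tools StringTie 1.3.6, HISAT2 2.2.0, cutadapt 2.10 and FastQC. For annotation release and strand setting nothing is stated there, so overlapping, antisense or near-identical genes cannot be told apart. The authors deposited TPM values, scaled over lncRNA genes alone, for 96411 genes; every one of the 72 columns was assigned through its sample's label. The design text speaks of 36 samples; 72 are listed.

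A gene entered a fit where 3 or more of its libraries reached 0.5 TPM, and log2(TPM + 0.5) was tested, which understates differences of low genes, with limma 3.58.1 (trend) in R 4.3.3; data.table (version 1.17.8) read the file. All 24 libraries (8 groups) of a line entered a fit, or those of both lines where lines were compared. Tests were two-sided, with Benjamini-Hochberg adjustment over all genes tested. Members and lists were chosen with earlier results of these data known. Ranked genes are those called, without overlap of the groups, as deposited and after median-of-ratios rescaling, 15 per direction by absolute log2 difference, which 212 higher and 62 lower genes allowed. Alternatives were each library left out, the compared groups alone, a replicate block, 3 other scalings, a pseudocount of 0.1 or 1, and as filters either none or a mean of 1 TPM or more. A list of known lncRNAs and markers of the line needed symbols; 0 identifiers matched, so neither was analysed here. Simulated data for the 2 h contrast held 20091 genes. Of planted log2 differences of 2, 1 and 0.5, limma recovered 97%, 52.2% and 10.6%, with 10 false calls. No recovery rate was obtained for the 8278 tested genes averaging under 1 TPM, in which nothing was planted. Their median standard error was the largest (0.387). The rates above do not cover those low genes and may be too high for them.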

Additional observations from a re-analysis of the deposited data

Results flagged for a closer look

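NONHSAG026216.2 had a larger log2 difference between TGF-β and SB in M1 at 2 h than at 8 h or in the other lines. It was chosen for its difference in M1 at 2 h, so these contrasts reuse the values that chose it and are descriptions. From 2 to 8 h in M1 the log2 difference changed by −1.87 (limma adjusted p = 0.0460). That call was lost in 12 of 21 other settings, 9 of them without a single library (adjusted p up to 0.157). The value at 2 h was larger in M1 than in M2 by 2.52, a call lost in 8 of 21 other settings, and larger than in MDA-MB-231 by 2.52, lost in 5 of 21. Both calls against the lines were lost after median-of-ratios rescaling (adjusted p = 0.0573 and 0.0616) and without M1 TGF-β replicate 3 (0.0803 and 0.0670).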

How the results depend on the processing

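Depth is unknown in TPM, so low genes are uncertain by an unknown amount. The count of 282 genes at 2 h in M1 was within 1.5 times of itself under other pseudocounts, filters, scalings and the block (264 to 390), was 120 with the compared groups alone, and ranged from 171 to 258 with 1 library left out (171 without TGF-β replicate 3, 186 without TGF-β replicate 1). Deviations of same-numbered libraries of the 2 groups had correlations of 0.0195, 0.0163 and 0.0435, and those of differently numbered libraries −0.0441 to 0.0287. Values this small cannot decide whether the libraries were paired, and the labels give only a replicate number. The replicate block gave 284 at 2 h in M1, 332 in place of 189 in MDA-MB-231 and 48 in place of 85 for M1 against M2. The cause of the following changes was not tested. With the compared groups alone the counts were 43 for TGF-β at 2 h against the controls, 1 for SB against its earliest libraries, 27 for the difference of the arms' changes, 161 for 8 h against 2 h, 455 for 24 h against 2 h, 150 in M2, 86 in MDA-MB-231, 0 for M1 against M2 and 45 for M1 against MDA-MB-231. After median-of-ratios rescaling they were 28 for SB, 117 for the arms' changes, 400 in M2, 500 in MDA-MB-231, 31 for M1 against M2 and 496 for M1 against MDA-MB-231. After quantile normalization they were 27, 113, 450, 467, 33 and 306 in the same order, and 527 for 8 h against 2 h. With the top 10 genes left out of the scaling they were 94 for the arms' changes, 141 in M2, 7 for M1 against M2 and 289 for M1 against MDA-MB-231. A mean of at least 1 TPM gave 193 for M1 against M2. Between the starting groups a pseudocount of 1 gave 1 call, no filter gave 2, and leaving out 1 library gave 0 to 1. Leaving out 1 library gave 85 to 120 for TGF-β against the controls (116 and 85 without 0 h replicate 1 and 2, 112 and 111 without TGF-β replicate 1 and 3), 5 to 17 for SB (9 without earliest SB replicate 3, 5 without SB replicate 2) and 35 to 52 for the arms' changes (35 and 36 without the same libraries). It gave 216 to 309 for 8 h against 2 h, 585 to 1317 for 24 h against 2 h (1317 without TGF-β 24 h replicate 3), 160 to 2942 in M2, 60 to 162 in MDA-MB-231, 7 to 1644 for M1 against M2 and 95 to 242 for M1 against MDA-MB-231. The counts at 8 h and 24 h stayed within 1.5 times of themselves in every setting.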

Other observations

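Among the genes that did not pass the test at 2 h in M1, 406 were higher and 336 lower by at least 1 on the log2 scale, and 7 and 4 by at least 2. The median standard error of those 11 genes was 0.69, against 0.35 for the 34 genes called higher by at least 2. The largest of them, picked after its values were seen, was listed at 0, 0 and 92.9 TPM with SB and stood at 72.1, 77.0 and 109 TPM with TGF-β. Its log2 difference was 4.90 (SE 2.78, limma adjusted p = 0.550). Only 1 SB library was at the level of the TGF-β libraries. The largest in the other direction was at 27.7, 26.9 and 25.0 TPM with SB and at 3.54, 23.3 and 0.212 TPM with TGF-β, where 1 TGF-β library stood near the SB level (log2 −2.72, SE 0.72, limma adjusted p = 0.0674).

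The largest gene of the 67 lower ones, at 2423 TPM with SB and 1475 TPM with TGF-β at 2 h, was at a mean of 8532 and 2964 TPM at 8 h and 8153 and 2127 TPM at 24 h. Its level with SB at the later times was thus above that in the earliest SB libraries, 1787 TPM, while with TGF-β it went from 1925 TPM in the controls to the values given.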
